A study of Mus musculus with 8 samples.

Results

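Transforming growth factor beta (TGF-beta) is a secreted cytokine that cells release in a latent form and that signals through a pair of serine/threonine kinase receptors. The type II receptor binds the active ligand and phosphorylates the type I receptor, which phosphorylates SMAD2 and SMAD3. These join SMAD4 and enter the nucleus, while SMAD7 and the corepressor SKIL (also called SnoN) restrain the pathway and are themselves induced by it. In the colon, TGF-beta is known to drive the maturation of monocytes into resident macrophages.

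The genes described here were chosen by name as the core of this pathway: the ligands Tgfb1, Tgfb2 and Tgfb3, the receptors Tgfbr1 and Tgfbr2, the signal carriers Smad2, Smad3 and Smad4, and the inhibitors Smad7 and Skil. All 10 were among the 14980 genes of the count table and all 10 passed the filter on low counts, which kept 14193 genes. RNA was sequenced from colonic lamina propria macrophages of 4 male mice, gated as positive for MHC class II and for CD64, the high-affinity Fc gamma receptor. From each mouse, GPR35-positive and GPR35-negative cells were sorted apart, which gave 8 libraries in 2 groups of 4. GPR35 is a G protein-coupled receptor. The sources used here state no strain, age, genotype or treatment. The design asks how macrophages with GPR35 on their surface differ from those without it.

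Totals ran from 33776161 to 48609595 counts in the GPR35-positive libraries and from 15999301 to 30071863 counts in the GPR35-negative libraries. Gpr35 itself was at 56.2 to 91.9 CPM (counts scaled to a common library total with TMM factors) in the positive and at 1.13 to 4.68 CPM in the negative libraries. Fcgr1, which encodes CD64, and H2-Ab1, a chain of MHC class II, were also higher in the positive libraries (both named after their values were seen; log2 fold changes 1.99 and 2.56; edgeR adjusted p = 0.0106 and 1.27e-03). All 20 macrophage identity genes were detected in every library, but their summed level was 46939 to 55419 CPM in positive and 5266 to 23868 CPM in negative libraries. All 20 were called higher in GPR35-positive cells. The summed level of 12 B and plasma cell markers was 1214 to 2652 CPM in positive and 73470 to 143860 CPM in negative libraries, so the negative libraries hold much RNA typical of another cell type than their label names. Pax5 was the marker of that list at 0 in some libraries of both groups. Stromal, endothelial and muscle markers summed to 206 to 997 CPM against 2917 to 6545 CPM, with none of the 10 at 0 in any library. In bulk libraries, fewer cells of a type and less RNA per cell cannot be told apart. Each member is also given after scaling the libraries by their macrophage identity genes ("identity scaling"), which cannot tell them apart either. RNA of other cells in the negative libraries stays in the scaled values. A negative value with identity scaling therefore need not mean a lower level per macrophage. Identity scaling moved the median log2 fold change of all tested genes from -0.05 to -2.64. Library-size scaling moved it to -0.34 and upper-quartile scaling to -0.19. Log2 fold changes below are given as fitted, without subtracting these medians.

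Of the 10 members, 5 were higher in GPR35-positive cells and 1 was lower. Higher were Tgfbr1, Tgfb1, Smad7, Skil and Smad2, all but Tgfbr1 changing sign with identity scaling, and lower was Tgfb3. Among all tested genes 18.4% were called higher and 19.5% lower, 38% in either direction (edgeR quasi-likelihood test, Benjamini-Hochberg adjusted p under 0.05). The members' median log2 fold change was 0.84, and -1.65 with identity scaling. With the animal as a block, 7 were higher and 2 lower, because Tgfbr2, Smad3 and Tgfb2 also passed; the background was then 39.3% in either direction, 19.4% higher and 20% lower. With identity scaling none was higher and 7 were lower, where 0.486% and 86.1% of all tested genes were, 86.5% in either direction. With identity scaling and the animal block together, 0 and 6 were, against 0.676% and 81.3%, 82% in either direction. The CPM ranges of the groups did not overlap for 6 of 10 members, 5 higher and 1 lower, against 42.1% of all tested genes, 21.5% higher and 20.6% lower. Within animals, the positive library had the higher value in all 4 animals for 7 members and the lower value in all 4 for 2, and Smad4 was mixed.

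**Figure D1:**
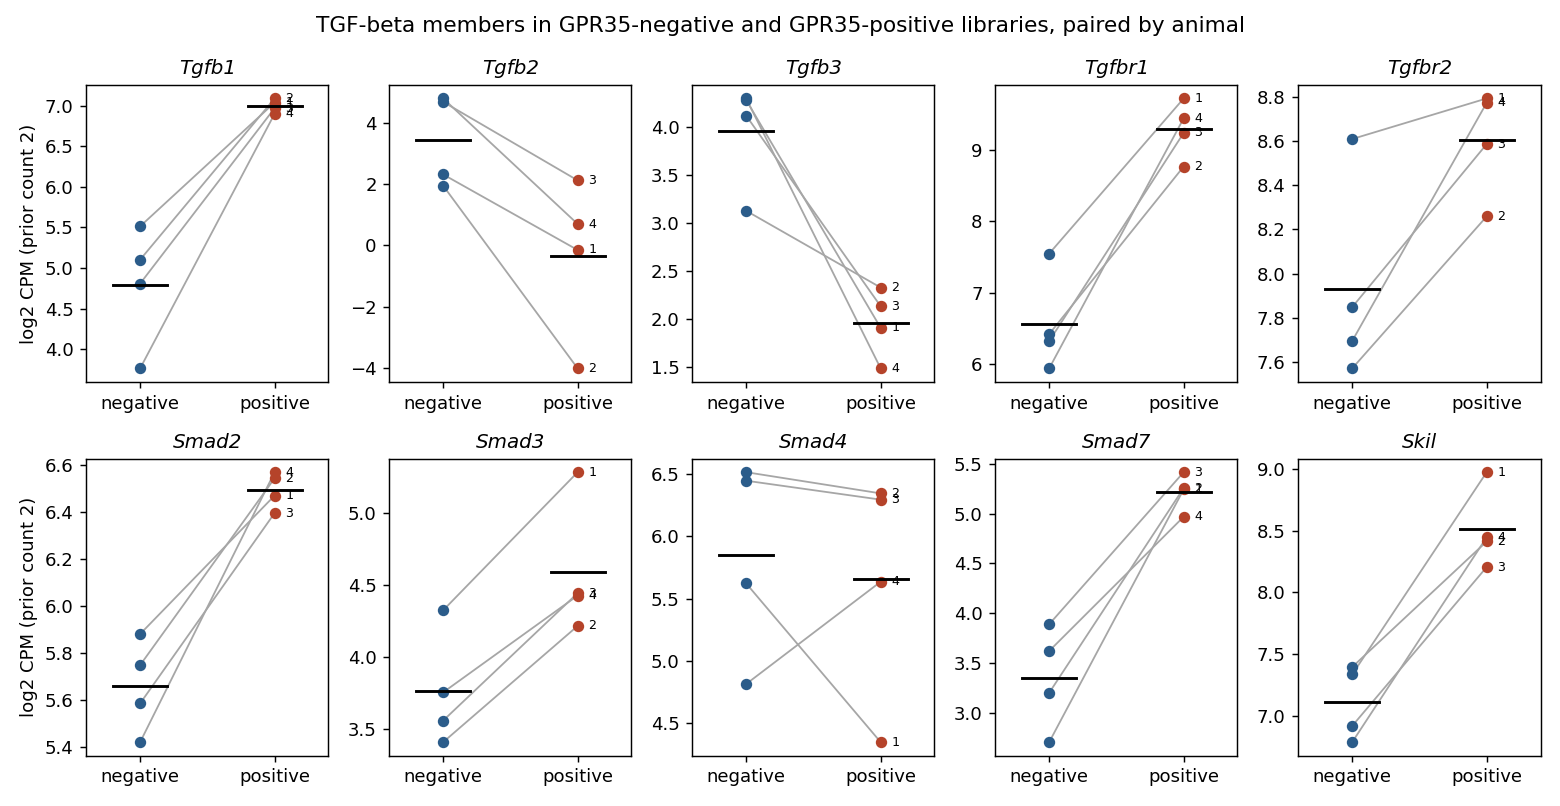
Each panel plots 1 member as log2 CPM (prior count 2) in the GPR35-negative (blue) and GPR35-positive (red) libraries, with a line joining the libraries of an animal, the replicate number beside the positive library, and a bar at each group mean (TMM scaling). Tgfb1, Tgfbr1, Smad2, Smad7 and Skil have all positive libraries above all negative ones, Tgfb3 the reverse, and Smad4 lines run in both directions.

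The ligands moved in opposite directions. Tgfb1 (Entrez gene 21803, chromosome 7, 25687002 to 25705077 in GRCm38.p6), the form that most immune cells make, was at 131, 136, 125 and 119 CPM in GPR35-positive replicates 1 to 4. In the GPR35-negative replicates it was at 45.6, 34.3, 27.9 and 13.5 CPM. The positive libraries lay close together (128 ± 7.24 CPM, SD, n = 4) and far above the negative ones (30.3 ± 13.4 CPM, SD, n = 4). Tgfb1 was 4.22-fold higher (2.08 ± 0.32 on the log2 scale, SE; edgeR adjusted p = 1.50e-03). Identity scaling put it at -0.31 (edgeR adjusted p = 0.542). Among negative libraries Tgfb1 was highest in replicate 1, where the macrophage identity genes summed to 23868 CPM. It was lowest in replicate 4, where they summed to 7313 CPM, although replicate 3 had the smallest sum at 5266 CPM. The part of macrophage content in this difference was not tested.

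Tgfb3 (Entrez gene 21809, chromosome 12, 86056743 to 86079041), a ligand known from mesenchymal tissues, was at 3.68, 4.95, 4.32 and 2.73 CPM in GPR35-positive replicates 1 to 4. It was at 19.4, 8.67, 17.3 and 19.6 CPM in the negative ones. Every negative library lay above every positive one, with replicate 2 the lowest among the negatives. Tgfb3 fell by 2.05 ± 0.33 on the log2 scale (SE; edgeR adjusted p = 1.79e-03). Under identity scaling it was at -4.65, where the median of all genes was -2.64.

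Tgfb2 (Entrez gene 21808, chromosome 1, 186622787 to 186709697), a ligand known from embryonic and mesenchymal tissues, was the least abundant member in GPR35-positive cells. Its GPR35-positive libraries held 36, 0, 172 and 64 counts (0.840, 0, 4.29 and 1.56 CPM), and 3 counts would have been 0.1004 CPM in the library at 0. The GPR35-negative libraries were at 4.92, 3.80, 25.7 and 27.7 CPM. Positive replicate 3 overlapped negative replicate 2, and the negative libraries fell into a low and a high pair. Its log2 fold change of -3.21 ± 1.18 (SE) missed the threshold without the animal block (edgeR adjusted p = 0.0595) and passed with it (-3.64 ± 0.78, edgeR adjusted p = 0.0131). It also passed without replicate 2 (edgeR adjusted p = 0.0381) and without GPR35-positive replicate 3 (edgeR adjusted p = 0.0402). Stromal markers were high and low in the same pairs of negative libraries: they summed to 6545 and 6425 CPM in negative replicates 3 and 4, and to 4355 and 2917 CPM in replicates 1 and 2. In positive libraries they were highest in replicate 3 (997 CPM) and lowest in replicate 2 (206 CPM), as Tgfb2 was. Tgfb3 was instead highest in positive replicate 2, at 4.95 CPM. In negative libraries Tgfb3 was lowest in replicate 2, at 8.67 CPM, as the stromal markers were. The part of stromal cells in the Tgfb2 and Tgfb3 values was not tested. Exons of Tgfb2 and Tgfb3 overlap antisense or uncharacterised genes on the other strand, and the library method does not mark strand, so reads from these cannot be told apart.

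The receptors differed in how far apart the groups stood. Tgfbr1 (Entrez gene 21812, chromosome 4, 47353222 to 47414926), the type I receptor kinase, was at 842, 435, 603 and 695 CPM in GPR35-positive replicates 1 to 4. In the negative replicates it was at 187, 85.4, 79.8 and 61.2 CPM. The groups were well apart, and in both of them replicate 1 was the highest. The log2 fold change of 2.64 ± 0.38 (SE; edgeR adjusted p = 1.10e-03) was the largest increase among the 10 members, a 6.23-fold difference. Tgfbr1 alone among them kept a value above 0 with identity scaling, at 0.34 ± 0.45 (SE; edgeR adjusted p = 0.480), which did not pass.

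Tgfbr2 (Entrez gene 21813, chromosome 9, 116087695 to 116175363), the type II receptor that binds the ligand, was at 443, 306, 384 and 437 CPM in the positive libraries. It was at 390, 190, 230 and 207 CPM in the negative ones, where replicate 1 reached into the positive range. The difference of 0.62 ± 0.24 in log2 (SE) missed the threshold (edgeR adjusted p = 0.0727). It passed with the animal block (0.67 ± 0.17, edgeR adjusted p = 0.0243), without replicate 1 (0.85, edgeR adjusted p = 0.00901) and without GPR35-negative replicate 1 alone (0.91, edgeR adjusted p = 0.00297). With identity scaling it was -1.81 (edgeR adjusted p = 0.00133).

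**Figure D2:**
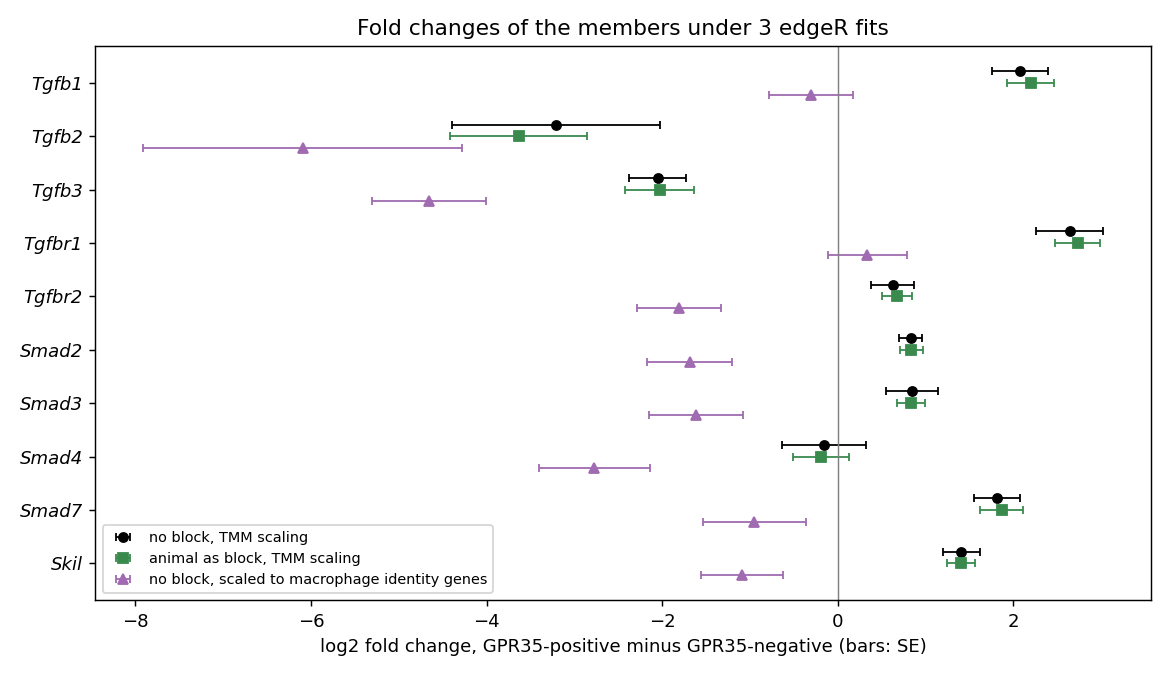
Points give the log2 fold change of each member, GPR35-positive minus GPR35-negative, with SE bars, from 3 edgeR fits over 4 libraries per group: no block, the animal as a block, and scaling to the macrophage identity genes. Block and no-block values lie close together, while identity scaling moves every member to the left and leaves only Tgfbr1 above 0, at 0.34.

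The sequences before the start sites of these ligand and receptor genes are shown for the 4 genes that carry the contrasts above: a ligand that was higher and one with a negative difference, and a receptor far apart between the groups beside one that overlapped. RefSeq windows were matched for 5 of the 10 members, and the 250 bases before the start are printed in GRCm38.p6 coordinates, 5′ to 3′ on the gene's strand. Capitals mark 4 motifs on either strand: CAGAC (the box bound by SMAD3 and SMAD4), GAGGAA (a core bound by PU.1, the macrophage lineage factor), GGGCGG (the GC box of Sp1) and TATAAA (the TATA box). No motif overlaps another in these windows.
Tgfb1, chr7:25686752-25687001, plus strand: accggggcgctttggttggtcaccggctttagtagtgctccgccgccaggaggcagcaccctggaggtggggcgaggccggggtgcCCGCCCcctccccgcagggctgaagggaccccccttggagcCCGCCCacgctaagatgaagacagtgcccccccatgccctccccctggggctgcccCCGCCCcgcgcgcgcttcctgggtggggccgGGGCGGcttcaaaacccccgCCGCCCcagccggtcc
Tgfb2, chr1:186705990-186706239, minus strand: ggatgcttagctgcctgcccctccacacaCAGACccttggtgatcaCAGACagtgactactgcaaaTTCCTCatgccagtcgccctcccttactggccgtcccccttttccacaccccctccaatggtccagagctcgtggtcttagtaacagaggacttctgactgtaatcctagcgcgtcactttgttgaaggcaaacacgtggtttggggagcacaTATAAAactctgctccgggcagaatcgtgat
Tgfbr1, chr4:47352972-47353221, plus strand: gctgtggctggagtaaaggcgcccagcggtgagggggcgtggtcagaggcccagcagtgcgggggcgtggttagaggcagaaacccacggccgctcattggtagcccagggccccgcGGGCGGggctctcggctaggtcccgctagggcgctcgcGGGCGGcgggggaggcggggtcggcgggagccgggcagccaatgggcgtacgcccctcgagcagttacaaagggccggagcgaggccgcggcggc
Tgfbr2, chr9:116175364-116175613, minus strand: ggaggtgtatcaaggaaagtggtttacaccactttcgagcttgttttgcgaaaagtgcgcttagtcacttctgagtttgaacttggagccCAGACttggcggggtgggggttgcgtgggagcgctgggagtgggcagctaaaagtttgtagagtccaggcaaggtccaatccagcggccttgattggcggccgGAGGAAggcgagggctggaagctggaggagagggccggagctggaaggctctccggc

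The Tgfb1 window held 5 GC boxes and the Tgfbr1 window 2, with a GC content of 75.2% and 74.8% and none of the other motifs. The Tgfb2 window, at 53.6% GC and starting inside the annotated gene span, held 2 CAGAC boxes, 1 GAGGAA core and a TATA box whose first base lies 31 bases before the start. The Tgfbr2 window, at 58.4% GC, held 1 CAGAC box and 1 GAGGAA core. A second RefSeq start of Tgfbr1, downstream of the first, had 1 CAGAC box and 1 GAGGAA core, and the Smad3 window had 2 GC boxes. Over 32851 RefSeq windows of the same length, 42.2% held CAGAC, 23.3% GAGGAA, 32.7% GGGCGG and 12.4% TATAAA. These matches describe letters in a window and say nothing of binding.

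Among the signal carriers, Smad2 was higher in GPR35-positive cells, while Smad3 lay at the threshold and Smad4 varied by animal. Smad2 (Entrez gene 17126, chromosome 18, 76241090 to 76311748) was at 88.6, 93.3, 84.1 and 94.9 CPM in positive replicates 1 to 4, and at 58.8, 53.7, 47.9 and 42.7 CPM in the negative ones. Relative to their means, its groups were the tightest of the members. Smad2 rose by 0.83 ± 0.13 on the log2 scale (SE; edgeR adjusted p = 1.50e-03). Identity scaling turned this to -1.69 (edgeR adjusted p = 0.00260).

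Smad3 (Entrez gene 17127, chromosome 9, 63646766 to 63757994), a signal carrier that binds DNA directly, was at 38.9, 18.5, 21.7 and 21.5 CPM in the positive libraries. In the negative libraries it was at 19.98, 10.6, 11.7 and 13.5 CPM. Negative replicate 1 lay within the positive range, yet within each animal the positive library was higher, by 0.96, 0.81, 0.88 and 0.67 in log2 CPM. The log2 difference of 0.85 ± 0.30 (SE) narrowly missed the threshold (edgeR adjusted p = 0.0502) and passed with the animal block (0.83 ± 0.16, edgeR adjusted p = 0.00898). It also passed without replicate 1 (edgeR adjusted p = 0.0262), without GPR35-positive replicate 2 (edgeR adjusted p = 0.0456) and without GPR35-negative replicate 1 (edgeR adjusted p = 0.0193). With identity scaling it was -1.62 (edgeR adjusted p = 0.00796).

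Smad4 (Entrez gene 17128, chromosome 18, 73634790 to 73703791), the partner shared with the BMP branch, was at 20.3, 81.1, 78.3 and 49.6 CPM in the positive libraries. It was at 49.2, 91.2, 87.0 and 28.1 CPM in the negative ones. Both libraries of the animals of replicates 2 and 3 were high, and the lowest values came from positive replicate 1 and negative replicate 4. Within animals the difference was -1.27, -0.17, -0.15 and 0.82 in log2 CPM. For Smad4 the mean difference of -0.16 ± 0.48 in log2 (SE; edgeR adjusted p = 0.816) was smaller than its error, so a change in either direction was not detectable. With identity scaling it was -2.78 (edgeR adjusted p = 6.09e-04).

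Both inhibitors were higher in GPR35-positive cells. Smad7 (Entrez gene 17131, chromosome 18, 75367365 to 75395935), which blocks the type I receptor and recruits ubiquitin ligases to it, was at 37.8, 38.1, 42.6 and 31.2 CPM in positive replicates 1 to 4. The negative libraries were at 6.48, 9.15, 14.8 and 12.3 CPM, all below the positive ones. Smad7 was 3.51-fold higher (1.81 ± 0.26 on the log2 scale, SE; edgeR adjusted p = 1.10e-03). Under identity scaling it was at -0.95 (edgeR adjusted p = 0.126).

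Skil (Entrez gene 20482, chromosome 3, 31095058 to 31122923), whose product holds SMAD complexes in a repressed state on DNA, was at 503, 341, 295 and 349 CPM in the positive libraries. In the negative ones it was at 161, 168, 121 and 110 CPM. The groups did not overlap, and positive replicate 1 stood highest. Skil was 2.65-fold higher (1.41 ± 0.21 on the log2 scale, SE; edgeR adjusted p = 1.43e-03). Identity scaling brought it to -1.09 (edgeR adjusted p = 0.0335). Leaving out any animal or library kept the calls of Tgfb1, Tgfb3, Tgfbr1, Smad2, Smad7 and Skil, with edgeR adjusted p up to 0.0187.

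Per gene length the members spanned a wide range. In RPKM (CPM per kilobase of the gene length that the table gives), the GPR35-positive libraries ranked Tgfbr1 (107 ± 28.3), Tgfbr2 (82.0 ± 13.3), Tgfb1 (58.8 ± 3.33) and Skil (52.6 ± 12.8) at the top (SD, n = 4). Smad4 (17.2 ± 8.52), Smad2 (9.87 ± 0.53), Smad7 (8.43 ± 1.05) and Smad3 (4.94 ± 1.82 RPKM) came next, followed by Tgfb3 (1.16 ± 0.28) and Tgfb2 (0.35 ± 0.39 RPKM). Library ranges of neighbours in this order were separate at only 3 places: between Tgfbr2 and Tgfb1, between Skil and Smad4, and between Smad3 and Tgfb3. In the GPR35-negative libraries Tgfbr2 stood first (53.2 ± 19.2 RPKM) and clear of Skil (19.9 ± 4.09 RPKM), and every later pair of neighbours overlapped. There Tgfbr1 (17.1 ± 9.39) stood below Skil and Smad4, Tgfb3 (4.80 ± 1.52) and Tgfb2 (3.29 ± 2.74) lay above Smad3 (2.74 ± 0.83), and Smad7 was last (2.40 ± 0.81 RPKM).

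**Figure D3:**
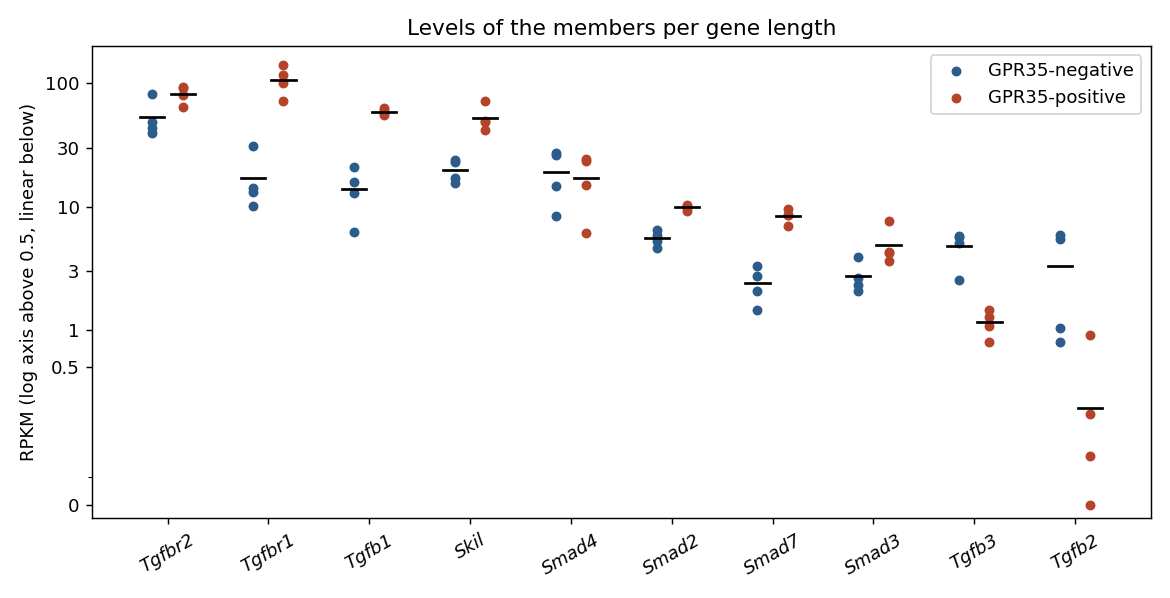
Dots give RPKM of each member in 4 GPR35-negative (blue) and 4 GPR35-positive (red) libraries with bars at the means, on an axis that is logarithmic above 0.5 and linear below (TMM scaling). The receptors, Tgfb1 and Skil stand highest in the positive libraries, and Tgfb2 and Tgfb3 are the members whose negative means lie above the positive ones, beside Smad4 with overlapping groups.

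Proportions between members within a library do not depend on how libraries are scaled. The 5 given here were chosen after the members' counts were seen and carry no test. Tgfb1 made up 97.5 ± 0.78% of the length-scaled counts of the 3 ligands in GPR35-positive libraries (SD, n = 4). In negative replicates 1 to 4 its share was 75.6%, 82.4%, 54.9% and 34.8%, all below the lowest positive value of 96.3%. The ratio of type I to type II receptor transcripts, Tgfbr1 over Tgfbr2, was 1.51, 1.13, 1.25 and 1.26 in positive and 0.380, 0.357, 0.275 and 0.235 in negative replicates. These groups were far apart relative to their spread (1.29 ± 0.16 and 0.31 ± 0.068, SD, n = 4). Smad7 relative to the sum of Smad2 and Smad3 was 0.491, 0.620, 0.712 and 0.482 in positive and 0.141, 0.259, 0.441 and 0.377 in negative replicates. The positive library had the higher ratio in all 4 animals, but the nearest libraries of the groups lay close. Smad4 over Smad2 plus Smad3 was 0.351, 1.75, 1.74 and 1.02 in positive and 1.42, 3.44, 3.45 and 1.15 in negative replicates. The ranges overlapped, but the positive library had the lower ratio in all 4 animals. Smad2 over Smad3 was 2.17 ± 0.66 in positive and 2.13 ± 0.54 in negative libraries (SD, n = 4), with overlapping ranges. Cell mixture can still move such proportions, and its part was not tested.

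**Figure D4:**
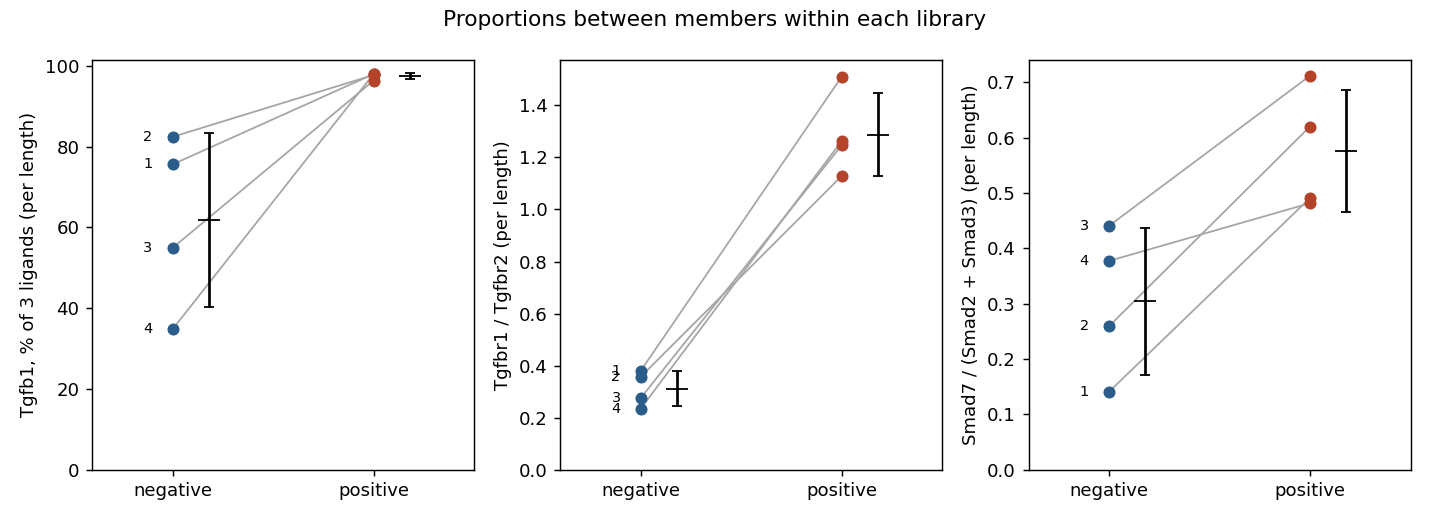
Panels give, per library, the share of Tgfb1 among the 3 ligands, Tgfbr1 over Tgfbr2, and Smad7 over Smad2 plus Smad3, all from counts per gene length, with lines joining the libraries of an animal, replicate numbers at the left, and mean with SD beside each group. In all 3 panels the 4 positive libraries lie above the 4 negative ones, most narrowly for Smad7.

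Other genes of the pathway came in 5 lists, to be read beside the 18.4% of all tested genes called higher and 19.5% called lower. Genes that handle latent TGF-beta or present it to its receptors were split: of 20 tested, 6 were higher and 9 lower, with a median log2 fold change of -0.79 (-3.46 with identity scaling) against -0.05 over all genes. Higher were Itgav (2.67 ± 0.34, SE; edgeR adjusted p = 6.85e-04) and Itgb5 (2.39 ± 0.38; edgeR adjusted p = 1.79e-03), subunits of the integrin alpha-v beta-5, which binds latent TGF-beta. Itgb5 was at 972 ± 31.5 against 186 ± 107 CPM (SD, n = 4). Thrombospondin Thbs1 (2.76 ± 0.61) and the membrane protease Mmp14 (2.18 ± 0.31) were also higher, both known to help activate the latent complex. With identity scaling Itgav and Itgb5 were at 0.23 and 0.13 and no longer called, and Thbs1 and Mmp14 at -0.056 and -0.39. Lower were Ltbp1, a matrix anchor of the latent complex (-3.15 ± 0.44), and Lrrc32, which encodes GARP, the anchor on regulatory T cells, platelets and some stromal cells (-3.13 ± 0.48). The proteoglycans Dcn (-3.69 ± 0.41) and Bgn (-3.57 ± 0.39), which stromal cells secrete and which bind TGF-beta, were lower as well, and Dcn is also in the stromal marker list. Other integrin beta subunits of the list, Itgb3 and Itgb1 (named after their values were seen), did not follow Itgb5. Itgb3 was lower (-4.16 ± 0.85, SE; edgeR adjusted p = 0.00564), and Itgb1 was not called (0.68 ± 0.27; edgeR adjusted p = 0.0735). Nrros, a relative of Lrrc32 that anchors TGF-beta on myeloid cells (chosen after its values were seen), was higher at 1.28 ± 0.39 (edgeR adjusted p = 0.0310); identity scaling put it at -0.89.

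SMAD regulators and cofactors were higher for 11 of 24 tested genes and lower for none, with a median of 0.58 (-1.92 with identity scaling). The shares over all tested genes were 18.4% higher and 19.5% lower. The ubiquitin ligases Nedd4l (1.31 ± 0.18, SE; edgeR adjusted p = 9.38e-04), Smurf1 (1.52 ± 0.34) and Rnf111 (1.07 ± 0.24) and the corepressor Tgif1 (1.79 ± 0.28) had the smallest p. Nedd4l and Smurf1 act on receptors and SMADs, while Rnf111, known as Arkadia, degrades SKIL and SMAD7. These 4 were negative with identity scaling, from -0.63 for Tgif1 to -1.43 for Rnf111. The count of 11 was 6 without replicate 3, 7 without replicate 4 and 7 without GPR35-positive replicate 1, and with library-size scaling it was 6. Calls over all tested genes were 2613 higher and 2774 lower with all libraries. They were 1569 and 1712 without replicate 3, and 1625 and 1681 without replicate 4. Without GPR35-positive replicate 1 they were 1983 and 2103, and with library-size scaling 1690 and 4193.

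Genes that TGF-beta induces in many cell types did not move together. Of 20 tested, 6 were higher and 11 lower, with a median of -2.16 (-4.84 with identity scaling). The shares over all tested genes were 18.4% higher and 19.5% lower. Tgfbi, a secreted matrix protein made by macrophages, stood at 2175 ± 377 against 249 ± 135 CPM (log2 fold change 3.13 ± 0.36, SE; edgeR adjusted p = 4.07e-04). Identity scaling left Tgfbi at 0.85, no longer called. Bhlhe40 (1.93 ± 0.25), Junb (1.29 ± 0.25) and the cell cycle inhibitor Cdkn1a (1.25 ± 0.27) were higher too, and between -0.81 and -1.12 with identity scaling. Those lower included Ctgf (-3.75 ± 0.50), Snai1 (-4.45 ± 0.70), Snai2 (-2.85 ± 0.43) and the collagen Col1a2 (-3.40 ± 0.61), genes known from fibroblasts. Snai1 was near the floor, at 0.0669 to 0.390 CPM in positive and 2.20 to 7.14 CPM in negative libraries. In the positive libraries 3 counts equal 0.0700 to 0.1004 CPM. Stromal markers, of which 8 of 10 were called lower, moved with these lower genes. Col1a1, Col3a1 and Acta2 (named after their values were seen) are in both lists and were called lower, so the lists are not independent. The part of stromal cells was not tested. Without replicate 4 the count past the threshold was 10 in place of 17. Over all tested genes 1625 were then called higher and 1681 lower, against 2613 and 2774 with all animals.

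In the BMP and activin branch, 4 of 24 tested genes were higher and 9 lower, with a median of -0.51 (-3.16 with identity scaling). Of all tested genes 18.4% were higher and 19.5% lower, so the share of higher BMP genes was near the background. With the animal block 4 genes of the branch were higher and 6 lower, against 19.4% and 20% of all tested genes. Bmp2, Grem1 and Id1 (named after their values were seen) then lost their calls (edgeR adjusted p = 0.0770, 0.0536 and 0.0626). The ligands Bmp4 (-3.54 ± 0.47, SE), Bmp6 (-4.06 ± 0.39) and Bmp7 (-2.51 ± 0.49) and the activin antagonist Fstl3 (-3.70 ± 0.47) were lower. The receptor Acvrl1 (1.38 ± 0.31), the cytokine Gdf15 (1.81 ± 0.45), Smad1 (0.88 ± 0.25) and Id2 (0.99 ± 0.26) were higher, all turning negative with identity scaling. Without replicate 4 these 4 calls ended (edgeR adjusted p = 0.0524 for Acvrl1, 0.0680 for Gdf15, 0.107 for Smad1 and 0.0728 for Id2) and the count past the threshold was 6 in place of 13. Of all tested genes 1625 were then called higher and 1681 lower, against 2613 and 2774 with all animals. Without replicate 3, Smad1 (edgeR adjusted p = 0.0664) and Id2 (edgeR adjusted p = 0.0587) lost their calls. Smad1 also lost its call without GPR35-positive replicate 1 (edgeR adjusted p = 0.0577), without GPR35-positive replicate 4 (edgeR adjusted p = 0.0547) and without GPR35-negative replicate 4 (edgeR adjusted p = 0.0502).

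Genes that microglia, the macrophages of the brain, need TGF-beta to express were higher for 6 of 11 tested and lower for none, with a median of 1.603 (-0.84 with identity scaling). The shares over all tested genes were 18.4% higher and 19.5% lower. Olfml3, which encodes a secreted glycoprotein (1.96 ± 0.18, SE; edgeR adjusted p = 1.37e-04), the microglial membrane protein gene Tmem119 (1.68 ± 0.25) and the nucleotide receptors P2ry13 (2.17 ± 0.50) and P2ry12 (1.83 ± 0.45) had the smallest p. Olfml3 was at 247 ± 50.1 against 63.2 ± 9.41 CPM (SD, n = 4), and P2ry12 at 159 ± 12.6 against 44.9 ± 29.3 CPM. With identity scaling Olfml3 was at -0.53, Tmem119 at -0.84, P2ry12 at -0.33 and P2ry13 at 0.019, none of them called. Mertk, in this list and in the macrophage identity list and named after its values were seen, was also called higher (1.86 ± 0.49; edgeR adjusted p = 0.0175). Without replicate 4 the count was 2 in place of 6, and P2ry13 (edgeR adjusted p = 0.0680) and P2ry12 (edgeR adjusted p = 0.0687) lost their calls. All tested genes called higher then numbered 1625, against 2613 with all animals, and those called lower 1681, against 2774.

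**Figure D5:**
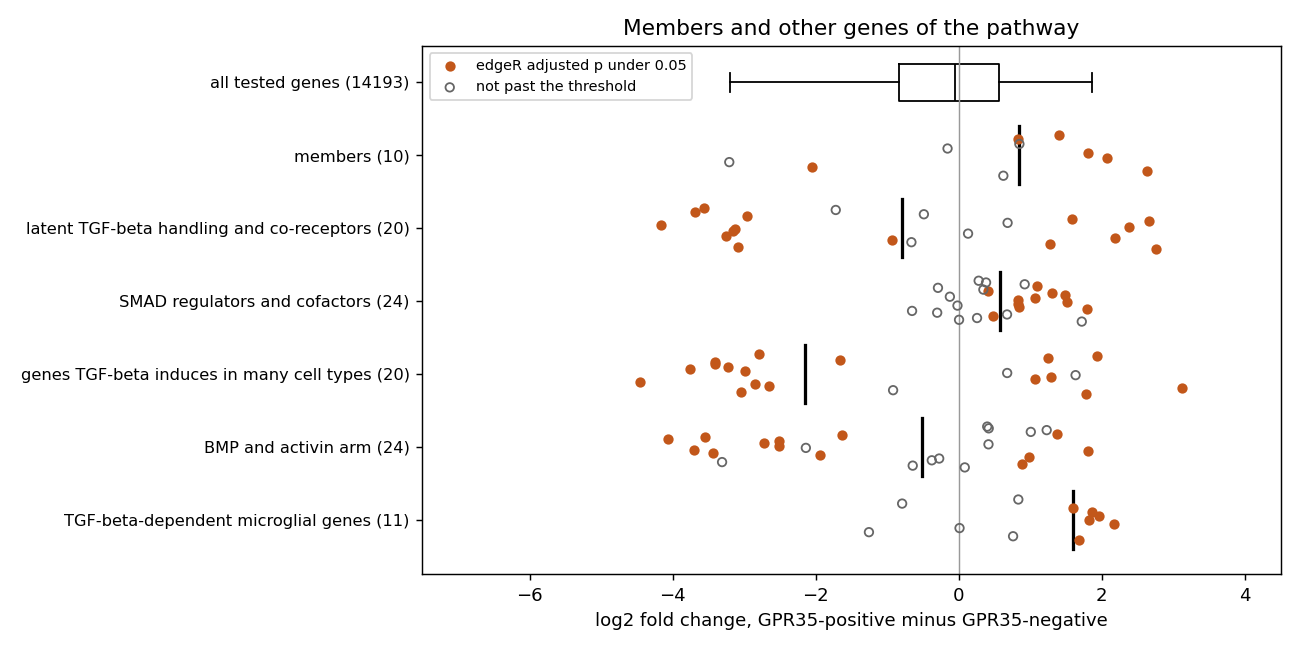
Each dot is a gene's log2 fold change, GPR35-positive minus GPR35-negative with TMM scaling, filled where the edgeR adjusted p is under 0.05, with a bar at each list's median; the box at the top covers the quartiles of all 14193 tested genes and its whiskers the central 90%. Members, SMAD regulators and microglial genes lie mostly to the right, and the latent-complex, target and BMP lists split to both sides. Values with identity scaling, under which every list's median is below 0, are not drawn.

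Genes whose levels followed the members most closely over the 8 libraries were taken by Pearson's r of log2 CPM; the libraries share groups and animals, so r is a description. Tgfb1 was closest to Pitpnm1 (r = 0.995) and Casp8 (0.995), and Tgfbr1 to Taok3 (0.997) and Pnpla7 (0.996). Tgfb2 was closest to Nkx2-3 (0.980), a transcription factor gene of gut mesenchyme, and Arhgap29 (0.973), and Tgfb3 to Mtch1 (0.977) and Lars2 (0.975). For Tgfbr2 they were Prkacb (0.982) and Cab39 (0.980), for Smad2 P4ha1 (0.996) and Sumf1 (0.996), and for Smad3 Btaf1 (0.981) and Gpatch3 (0.980). Smad4 was nearest to Ppp2cb (0.968) and Ybx3 (0.953), Smad7 to Gatsl3 (0.991) and Pank2 (0.988), and Skil to Sf3b1 (0.998) and Gna13 (0.997). No other member was among the 2 nearest genes of any member.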

How the data were processed

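The deposited table gives raw read counts per gene, 1 column per library, and a gene length whose definition is not stated. The aligner named is STAR 2.5.2a, beside R 3.4.2 and the mm10 build, per the submitters' processing notes; the sources used here name no counting tool. Per the labels' protocols, cDNA was made with SMART-Seq v4 and libraries with Nextera XT, a method that marks neither strand nor single molecules.

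Counts were tested with edgeR 4.0.16 in R 4.3.3: filterByExpr (minimum count 10, total 15), TMM, robust quasi-likelihood F-test, no block, Benjamini-Hochberg over 14193 genes, threshold 0.05. CPM and RPKM were computed here from the deposited counts with TMM scaling; log2 CPM used a prior count of 2. The SE is the absolute log2 fold change divided by the root of the F statistic. The 9 rows without a symbol (0.0179% of counts) were kept, since they carry gene IDs.

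Labels tie each positive library to the negative library of the same animal. Paired deviations from group means correlated at 0.205, 0.206, 0.432 and 0.0637 in replicates 1 to 4. The best match outside the pair reached 0.104, 0.104, 0.237 and 0.237. In replicate 4 the labelled partner was thus not the closest, and that pair rests on its label alone. The animal block and the within-animal values use all pairs as labelled. No replicates agreed within sampling noise (smallest chi-square per degree of freedom 26.1). Identity scaling used the geometric mean of 20 macrophage genes.

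Members, lists and the identity scaling were chosen with earlier results of these data known. Named genes are the members, Gpr35, up to 4 genes per direction and list with the smallest p past the threshold, and 2 most correlated genes per member among genes averaging 3 log2 CPM or more; any other is marked. Of the listed symbols, Itgb6, Itgb8, Foxh1, Inha, Acvr1c, Nog and Epx are not analysed here, and Pax5, Bmpr1b and Smad9 were below the count filter. A further gene was left out of the microglial list, whose counts are without it, and is not reported here. Other cell type lists summed, in positive and negative libraries, to 55.9 to 64.0 and 332 to 581 CPM (T and innate lymphoid), 79.5 to 142 and 183 to 472 (epithelial), 154 to 485 and 52.5 to 238 (dendritic), and 128 to 182 and 122 to 264 (granulocyte and mast). Alternatives used DESeq2 1.42.0 and limma 3.58.1. Coordinates and promoters are from RefSeq GRCm38.p6, and overlapping genes from GENCODE.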

Additional observations from a re-analysis of the deposited data

Results flagged for a closer look

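Over the members, Gpr35 and the other named genes, 86 groups of 4 libraries were checked for a library far from the rest by Dixon's 95% limit; chance flags about 1 in 20 groups, and 4 were found. Smad3 stood at 38.9 CPM in GPR35-positive replicate 1, against 18.5 to 21.7 CPM in the other positive libraries. Mmp14 was at 585 CPM in the same library, against 355 to 371 CPM, and Smurf1 at 74.9 CPM, against 52.6 to 55.8 CPM. Tmem119 was low in GPR35-positive replicate 2, at 264 CPM against 357 to 369 CPM.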

How the results depend on the processing

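With identity scaling, the median of all genes moved to -2.64 and these log2 fold changes turned negative, those of Tgfbr2 and Smad3 not having been called before: Tgfb1 -0.31, Tgfbr2 -1.81, Smad2 -1.69, Smad3 -1.62, Smad7 -0.95, Skil -1.09, Thbs1 -0.056, Mmp14 -0.39, Smurf1 -1.04, Tgif1 -0.63, Rnf111 -1.43, Nedd4l -1.28, Junb -1.11, Cdkn1a -1.12, Bhlhe40 -0.81, Gdf15 -0.42, Acvrl1 -1.36, Smad1 -1.69, Id2 -1.38, Tmem119 -0.84, P2ry12 -0.33, Olfml3 -0.53. With identity scaling and the replicate block they were Tgfb1 -0.17, Tgfbr2 -1.71, Smad2 -1.55, Smad3 -1.56, Smad7 -0.55, Skil -1.002, Mmp14 -0.14, Smurf1 -0.72, Tgif1 -0.62, Rnf111 -1.36, Nedd4l -1.09, Junb -1.06, Cdkn1a -1.08, Bhlhe40 -0.44, Gdf15 -0.35, Acvrl1 -0.85, Smad1 -1.43, Id2 -1.32, Tmem119 -0.64, P2ry12 -0.28, Olfml3 -0.43. Thbs1 alone of those above was positive there, at 0.26, and not called. Under these 2 settings the members past the threshold numbered 0 and 0 higher and 7 and 6 lower, SMAD regulators 20 and 19, all lower, and the BMP list 20 under the first, all lower. Of all tested genes, 86.1% and 81.3% were called lower under these settings, and 0.486% and 0.676% higher. The cause of these shifts was not tested.

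The count of 1 lower member became 2, through Tgfb2, with library-size scaling, the replicate block, DESeq2, DESeq2 with the replicate block, limma voom and thinning to the smallest total. The block brought Tgfb2, Tgfbr2 and Smad3 past the threshold and changed no other call of a gene named by the rule; over the lists it gave 7 higher and 9 lower genes of latent TGF-beta handling, 11 and 0 SMAD regulators, 5 and 10 induced genes, 4 and 6 BMP genes and 6 and 0 microglial genes. Of all tested genes it called 19.4% higher and 20% lower. SMAD regulators past the threshold were 6 with library-size scaling. Over all tested genes this scaling called 1690 higher and 4193 lower, against 2613 and 2774 in the main fit. Leaving out 1 animal or library at a time gave 5 to 7 higher and 1 to 2 lower members, 11 to 15 genes of latent TGF-beta handling, 6 to 13 SMAD regulators, 10 to 17 TGF-beta-induced genes, 6 to 14 BMP genes and 2 to 6 microglial genes. Over all tested genes these fits called 1569 to 2931 higher and 1681 to 3040 lower. DESeq2 also called Tgfbr2 (adjusted p = 0.0443) and Smad3 (adjusted p = 0.0285), and limma voom Tgfbr2 (adjusted p = 0.00649). Smad3 also passed in edgeR without robust estimation (adjusted p = 0.0490) and after thinning to the smallest total (adjusted p = 0.0399). The called directions of members held under the 24 settings other than identity scaling. The filter of 5 CPM removed Tgfb2, Snai1 and Bmp7, so that they have no value there. Dropping the 9 rows without a symbol, added after seeing the data, left Smad3 at an edgeR adjusted p of 0.05002. Tgfb2 rested on 0 to 172 counts in the positive libraries, and in the one at 0 a level under 0.1004 CPM was not detectable.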
